A study of Mus musculus with 4 samples.

Results

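Genes that move iron and heme were examined in macrophages sorted from mouse prostate tumours. The set held 10 genes, chosen by name from 39179 gene identifiers in the count files, and covered transferrin (Trf), its receptor (Tfrc), the metal transporters Slc11a1 and Slc11a2, the heme transporter Slc48a1, heme oxygenase (Hmox1), the ferritin subunits (Fth1 and Ftl1), the iron exporter ferroportin (Slc40a1) and the iron sensor Ireb2. All 10 were found and all 10 passed the filter on low counts. MycCaP cells, a prostate cancer line derived from a tumour with a MYC transgene in the FVB strain, or MycCaP-BMP4 cells, which overexpress the secreted factor BMP4, were grown under the skin of FVB mice. Cells that carried CD45, CD11b and F4/80 and lacked GR1 were sorted from the dissociated tumours as macrophages, and polyadenylated RNA was sequenced, with 2 libraries per group. Both groups share the host strain, the parental line and the site of growth, and the labels give neither the age of the mice nor whether each library had its own mouse. The p-values thus rest on the spread between these libraries alone, which may be technical. The labels do not say whether the MycCaP-BMP4 line is a clone or what drives BMP4 in it, and the titles name F4/80 only for the MycCaP-BMP4 libraries.

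Macrophages handle more iron than most cells because they digest old red cells and cell debris. Iron enters on transferrin through the transferrin receptor or as heme from engulfed cells, crosses the membrane of endosomes or phagosomes through the SLC11A transporters, is stored in ferritin and leaves through ferroportin. Iron regulatory proteins, of which Ireb2 encodes a member, bind hairpins called iron-responsive elements in the messenger RNA when iron is scarce. Binding near the 5′ end of ferritin and ferroportin messages blocks their translation, and binding in the 3′ part of the transferrin receptor message slows its decay. BMP signals are known to raise hepcidin in the liver, a hormone that removes ferroportin from the cell surface.

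The hairpins are shown because they set the 5 members with such an element apart. Transcripts of GENCODE M21 (GRCm38) were searched on the sense strand for a C, 5 bases, the loop CAGTGN and 5 bases, with at least 4 of the 5 flanking positions able to pair (T stands for U in RNA, and G with T counts as a pair). Slc40a1, Fth1 and Ftl1 each held 1 match in the 5′ UTR, Tfrc held 4 and Slc11a2 held 1 in the 3′ UTR, and Hmox1, Slc11a1, Slc48a1, Ireb2 and Trf held none in their UTRs. The capitals mark the loop of 6 bases, and each stretch is 28 bases long.
Slc40a1, 5′ UTR, chr1:45925465-45925492, minus strand: aacttcagctaCAGTGTtagctaagttt
Fth1, 5′ UTR, chr19:9982733-9982760, plus strand: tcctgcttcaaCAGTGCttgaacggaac
Ftl1, 5′ UTR, chr7:45459779-45459806, minus strand: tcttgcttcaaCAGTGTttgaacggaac
Tfrc, 3′ UTR, chr16:32631220-32631247, plus strand: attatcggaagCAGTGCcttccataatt
Tfrc, 3′ UTR, chr16:32631711-32631738, plus strand: attatcgggaaCAGTGTttcccataatt
Slc11a2, 3′ UTR, chr15:100395153-100395180, minus strand: gccatcagagcCAGTGTgtttctatggt
A match occurred in the 5′ UTR of 0.586% of 19281 protein-coding transcripts, 1 per gene, and in the 3′ UTR of 3.47% of 19853, with UTRs of any length. All 5 positions paired in the matches of Slc40a1, Fth1, Ftl1 and Tfrc and 4 in that of Slc11a2. The Slc11a2 match lay in 1 of its 6 protein-coding transcripts and not in the main transcript, and counts per gene do not tell such transcripts apart. A match of letters is a description and does not show that a protein was bound.

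The libraries held 23058263 to 24967143 counts in genes, and a detection limit of 3 counts equalled 0.120 to 0.130 CPM (counts per 1000000), for counting error only. All members lay far above it, with 403 counts or more in each library. The MycCaP-BMP4 libraries differed from each other more than the MycCaP libraries did, and genes that mark macrophages were lower in them. The median over 15 macrophage genes differed from the MycCaP mean by -2.34 in log2 in MycCaP-BMP4 replicate 1 and by -0.42 in replicate 2. Csf1r, the receptor for the macrophage growth factor, had 1837 and 2069 CPM in the MycCaP libraries and 423 and 1533 CPM in the MycCaP-BMP4 libraries. In such bulk samples fewer macrophages and less macrophage RNA per cell cannot be told apart.

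The design sets macrophages of tumours that overexpress BMP4 against those of the parental line. Ferroportin and the transferrin receptor, the export and import ends of the pathway, lay far apart in opposite directions in both MycCaP-BMP4 libraries. Slc40a1 stood at 14.2% and 23.3% of its MycCaP mean in replicates 1 and 2, and Tfrc at 2.71 and 4.96 times its MycCaP mean. The macrophage gene Csf1r stood at 21.7% and 78.5% of its MycCaP mean. The ferritin genes lay lower in both libraries by less than Slc40a1, and the groups overlapped in the other 6 members. No member passed edgeR's quasi-likelihood test across all genes at a Benjamini-Hochberg adjusted p of 0.05, which called 0 of 14075 genes (0%). At an unadjusted p under 0.05 the edgeR test had 2680 genes (19% of those tested). At an adjusted p under 0.05 DESeq2 called 961 higher (6.83%) and 424 lower (3.01%), and limma-voom called 0. Tfrc and Slc40a1 were the 2 members that DESeq2 called.

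**Figure D1:**
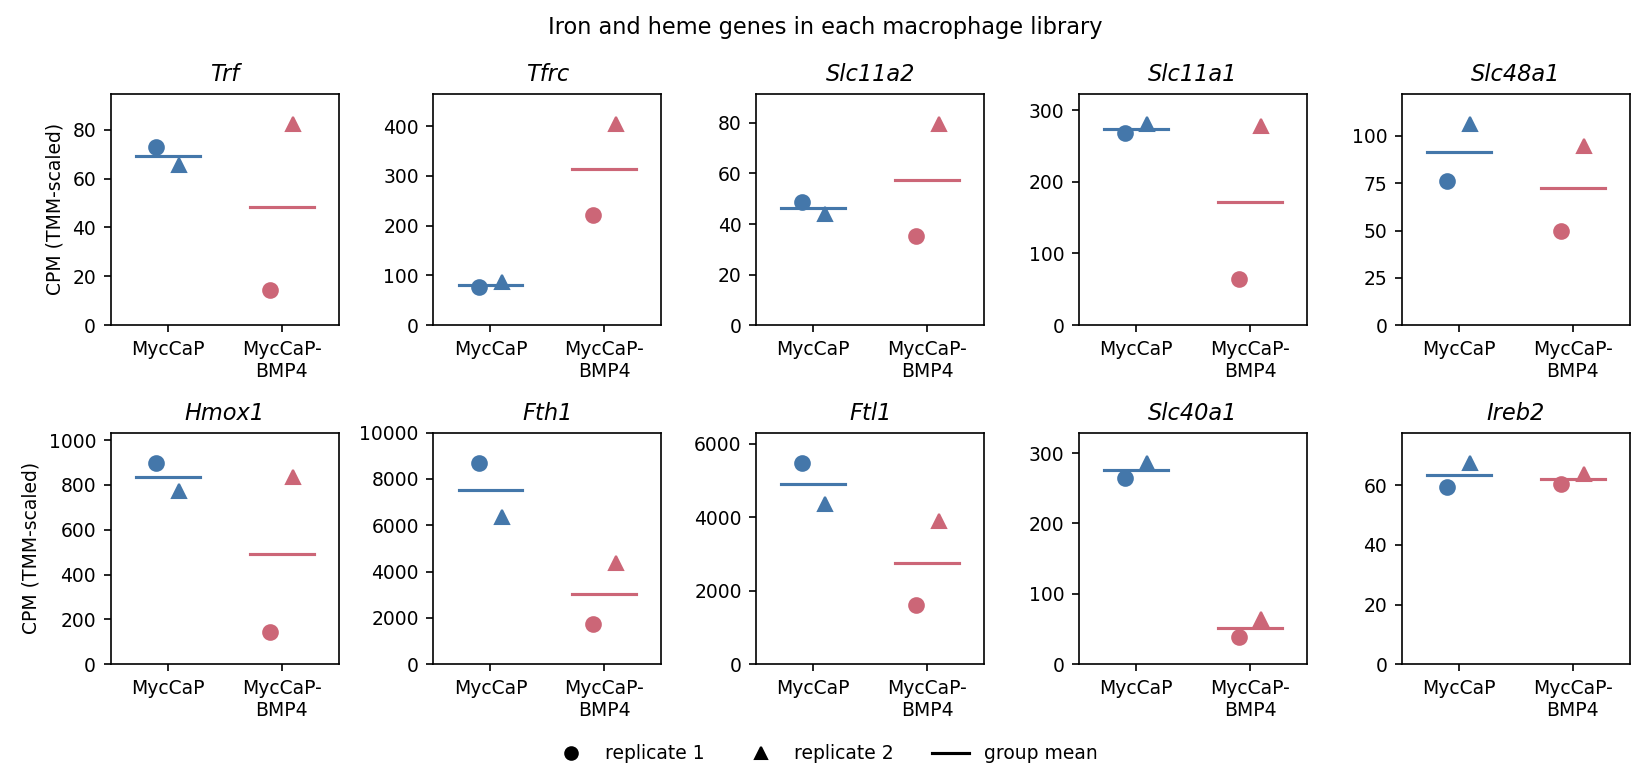
Normalised level (CPM after TMM scaling, linear axes from 0) of the 10 iron and heme genes in each library, with replicate 1 as circles, replicate 2 as triangles and the group mean as a line (n = 2 per group). Slc40a1 is near 276 CPM in the MycCaP group and 39.2 and 64.3 CPM with BMP4, Tfrc runs the other way, and most other genes are low in MycCaP-BMP4 replicate 1 alone.

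Tfrc (ENSMUSG00000022797; chromosome 16, 32608920 to 32632794 on GRCm38) encodes the receptor that brings transferrin-bound iron into the cell. It had 76.5 and 86.8 CPM in MycCaP replicates 1 and 2 and 221 and 405 CPM in MycCaP-BMP4 replicates 1 and 2. Both MycCaP-BMP4 libraries lay above both MycCaP libraries, and replicate 2, the library with more macrophage RNA, was the higher of the pair. The group means were 81.7 ± 7.28 and 313 ± 129.7 CPM (SD, n = 2), and the log2 fold change was 1.94 ± 0.39 (SE; 95% interval 0.97 to 2.91), and edgeR's quasi-likelihood test gave an unadjusted p of 0.00295 and a Benjamini-Hochberg adjusted p of 0.139. DESeq2 called it (adjusted p = 0.000194).

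Trf (ENSMUSG00000032554; chromosome 9, 103204001 to 103230444) encodes transferrin, the iron carrier that binds this receptor. It had 72.8 and 65.5 CPM in the MycCaP libraries and 14.6 and 82.5 CPM in the MycCaP-BMP4 libraries. The groups overlapped, since replicate 1 was the lowest and replicate 2 the highest of the 4 libraries. The log2 fold change was -0.51 ± 0.74 (SE), with an interval from -2.34 to 1.32. Without MycCaP-BMP4 replicate 1 it was 0.25, and without replicate 2 it was -2.22. Slc11a2 (ENSMUSG00000023030; chromosome 15, 100387898 to 100425072) encodes DMT1, which carries ferrous iron out of the endosome after receptor uptake. It had 48.6 and 43.9 CPM against 35.2 and 79.7 CPM, so the MycCaP-BMP4 libraries lay on either side of the MycCaP libraries. Its log2 fold change was 0.31 ± 0.42 (SE; interval -0.72 to 1.34). Without MycCaP-BMP4 replicate 1 it was 0.78, and without replicate 2 it was -0.36.

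Slc11a1, Slc48a1 and Hmox1 serve the recycling of iron from engulfed cells. Slc11a1 (ENSMUSG00000026177; chromosome 1, 74375195 to 74386062) encodes NRAMP1, a phagosome transporter that moves iron away from ingested microbes. It had 267 and 281 CPM in the MycCaP libraries and 65.0 and 278 CPM in the MycCaP-BMP4 libraries. Slc48a1 (ENSMUSG00000081534; chromosome 15, 97778520 to 97792692) encodes HRG1, which lets heme out of the phagosome, and had 76.0 and 106 CPM against 49.9 and 94.8 CPM. Hmox1 (ENSMUSG00000005413; chromosome 8, 75093621 to 75100589) encodes heme oxygenase, the enzyme that opens heme and frees its iron, and had 899 and 772 CPM against 145 and 838 CPM. In all 3 genes MycCaP-BMP4 replicate 1 was the lowest library and replicate 2 lay within the range of the MycCaP libraries, so the groups overlapped. Hmox1 in replicate 1 stood at 17.3% of the MycCaP mean, where Csf1r stood at 21.7%, and at 100.2% in replicate 2. The log2 fold changes were -0.68 ± 0.66 for Slc11a1, -0.33 ± 0.39 for Slc48a1 and -0.77 ± 0.79 for Hmox1 (SE), with 95% intervals from -2.32 to 0.96, from -1.29 to 0.62 and from -2.74 to 1.202. Without MycCaP-BMP4 replicate 2 they were -2.05, -0.84 and -2.50 and passed the edgeR test, as did 38.7% of all genes in that fit, whose spread came from the MycCaP pair alone. Without replicate 1 they were 0.015, 0.054 and 0.00083. Slc48a1 overlaps Hdac7 on the other strand, and since the strand setting of the counting is not given in the sources used here, its counts may include reads of that gene. The same holds for Slc11a2 and Ftl1, which overlap Gm5475 and Gm10252 on the other strand. Trf and Ftl1 also overlap Gm20425 and Gm22133 on their own strand, where no strand setting separates the reads. How reads shared by 2 genes were counted is not given.

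Fth1 (ENSMUSG00000024661; chromosome 19, 9980598 to 9985098) encodes the heavy chain of ferritin, which oxidises iron for storage. It had 8699.8 and 6377 CPM in the MycCaP libraries and 1729 and 4352 CPM in the MycCaP-BMP4 libraries. Ftl1 (ENSMUSG00000050708; chromosome 7, 45457944 to 45459884) encodes the light chain, which helps the mineral core to form, and had 5478 and 4344 CPM against 1606 and 3884 CPM. Both MycCaP-BMP4 libraries lay below both MycCaP libraries for each chain, and replicate 1 was the lower of the pair. The log2 fold change was -1.31 ± 0.69 (SE) for Fth1 and -0.84 ± 0.63 (SE) for Ftl1, and the intervals, from -3.01 to 0.39 and from -2.41 to 0.73, included 0. Without MycCaP-BMP4 replicate 1 the values were -0.79 and -0.34, and without replicate 2 they were -2.10 and -1.59. Processed copies of the ferritin genes could take or give reads. Of 4 such copies found by name, Ftl1-ps1 had the most, with 467 counts in MycCaP replicate 1. Adding all 4 to Fth1 and Ftl1 left the log2 fold changes at -1.31 and -0.84. Other copies were not searched for, and reads with several alignments are in a summary line outside the gene counts. This sum therefore cannot show how many reads the copies took.

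Slc40a1 (ENSMUSG00000025993; chromosome 1, 45908068 to 45926523) encodes ferroportin, the exporter of cellular iron. It had 265 and 286 CPM in the MycCaP libraries and 39.2 and 64.3 CPM in the MycCaP-BMP4 libraries. The groups did not overlap, and the distance between them was far larger than the spread within either, with means of 276 ± 15.01 and 51.7 ± 17.8 CPM (SD, n = 2). The log2 fold change was -2.41 ± 0.36 (SE; 95% interval -3.30 to -1.53), and edgeR's quasi-likelihood test gave an unadjusted p of 0.000624 and a Benjamini-Hochberg adjusted p of 0.107, while DESeq2 called it (adjusted p = 2.3e-07). A log2 fold change below -2, a drop of more than 4-fold, occurred in 2.64% of the 14075 genes tested, and one above 1, the side on which Tfrc lay, in 14.0%. Slc40a1 differed from the MycCaP mean by -2.81 and -2.10 in log2 in MycCaP-BMP4 replicates 1 and 2. The median of the 15 macrophage genes differed by -2.34 and -0.42, and Aif1 among them by -2.88 and -1.43. In replicate 1 Slc40a1 thus lay within the range of the macrophage genes, and in replicate 2 below it.

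Ireb2 (ENSMUSG00000032293; chromosome 9, 54863789 to 54912530) encodes IRP2, the iron regulatory protein that is degraded when iron is plentiful. It had 59.4 and 67.6 CPM in the MycCaP libraries and 60.5 and 63.7 CPM in the MycCaP-BMP4 libraries. These 4 values lay close together, and Ireb2 had the narrowest interval of the 10 members, -0.62 to 0.55 around a log2 fold change of -0.03. The values concern its messenger RNA, and the level of the protein was not measured.

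**Figure D2:**
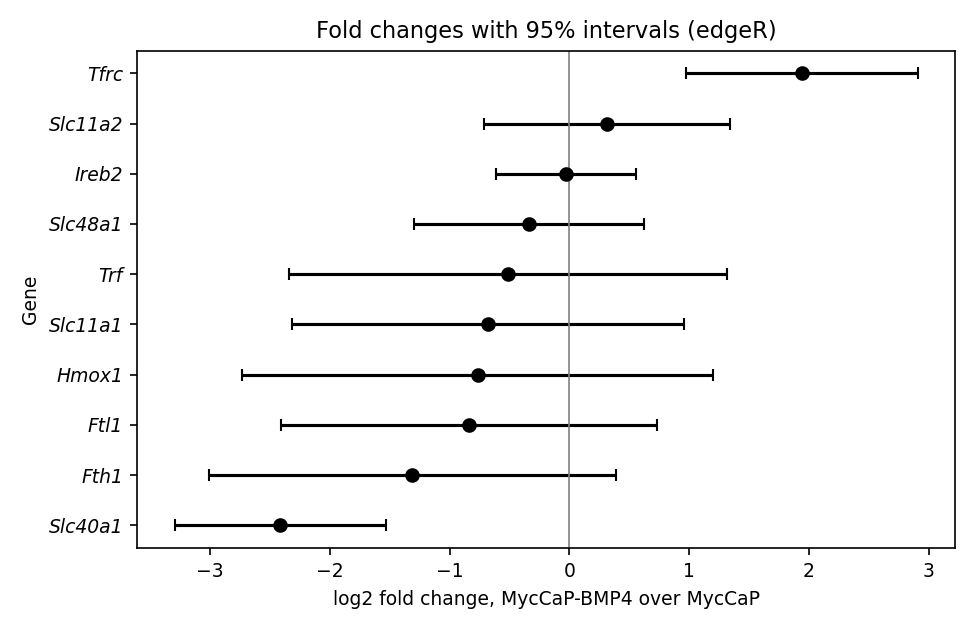
Log2 fold change of each member, MycCaP-BMP4 over MycCaP, from edgeR's fit over all genes, with 95% intervals that are not adjusted for the number of genes (n = 2 per group). The intervals of Slc40a1 (-3.30 to -1.53) and Tfrc (0.97 to 2.91) lie on opposite sides of 0 and those of the other 8 genes include 0.

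Over the 10 members, the groups did not overlap in 4, of which 1 (Tfrc) lay higher with BMP4 and 3 (Slc40a1, Fth1 and Ftl1) lay lower. Among all genes tested the groups did not overlap in 58.7%, with 28.9% higher and 29.7% lower, so the members' counts were no larger than the background. The median log2 fold change was -0.60 for the members and -0.03 for all genes. At an unadjusted p under 0.05, 1 member lay higher and 1 lower, where 12.3% and 6.76% of all genes did. The median of the members depended on MycCaP-BMP4 replicate 1. Without that library it was 0.0092, and without replicate 2 it was -1.82. The members differed from the MycCaP mean by a median of -1.84 in log2 in replicate 1 and 0.01 in replicate 2.

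Because macrophage RNA differed between the libraries, each member was also set against the 15 macrophage genes, by scaling every library on their median. That scaling moved the all-gene median log2 fold change to 1.63, and 68.5% of them were then higher in both MycCaP-BMP4 replicates and 4.11% lower. Members were higher in 6 cases and lower in 1. Slc40a1 was the 1 member that still lay lower in both, at 71.9% of the MycCaP mean in replicate 1 and 31.1% in replicate 2, with a log2 fold change of -0.96 ± 1.04 (SE) that did not pass the edgeR test (adjusted p = 0.474). Tfrc lay higher in both, at 13.7 and 6.61 times the MycCaP mean, and passed (log2 fold change 3.34 ± 1.07, SE; edgeR adjusted p = 0.0324), as did 7.78% of all genes on the higher side and 0.163% on the lower. Fth1 had a log2 fold change of -0.04. The signs of Ftl1, Hmox1, Slc11a1, Slc48a1, Trf and Ireb2 turned positive, to 0.45, 0.15, 0.35, 1.04, 0.42 and 1.62, of which that of Ireb2 was at the median of all genes.

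**Figure D3:**
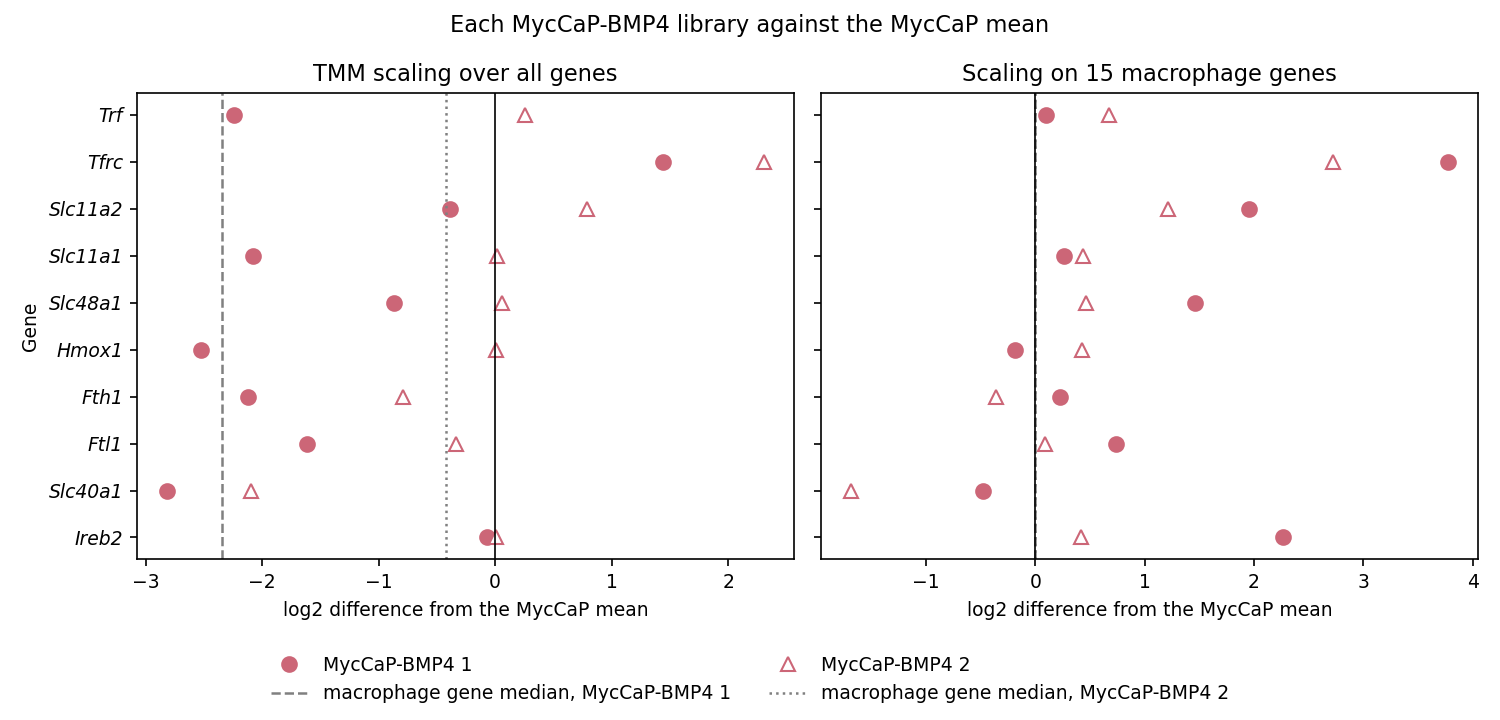
Log2 difference of each MycCaP-BMP4 library from the MycCaP mean for the 10 members, with TMM scaling over all genes on the left and scaling on 15 macrophage genes on the right (filled circles, replicate 1, and open triangles, replicate 2). Grey lines mark the median of the macrophage genes, at -2.34 and -0.42 on the left. Slc40a1 lies below 0 and Tfrc above 0 for both libraries in both panels, and Fth1, Hmox1, Slc11a1 and Trf lie near the macrophage line of replicate 1.

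Ratios of counts within a library do not depend on how libraries are scaled. The pairs were chosen after the values were seen, so the ratios are a description. There were 0.289 and 0.303 Tfrc counts per Slc40a1 count in the MycCaP libraries and 5.65 and 6.29 in the MycCaP-BMP4 libraries. The values lay close together within each group and far apart between the groups. The ratio of Fth1 to Ftl1 counts was 1.59 and 1.47 against 1.08 and 1.12, so the heavy chain made up less of the ferritin messages in both MycCaP-BMP4 libraries. Relative to Csf1r, Slc40a1 had 0.144 and 0.138 counts against 0.0926 and 0.0420, and Tfrc had 0.0417 and 0.0420 against 0.523 and 0.264. Slc11a1 per Csf1r had 0.146 and 0.136 against 0.154 and 0.181. Hmox1 had 0.490 and 0.373 counts per Csf1r count against 0.343 and 0.546, which overlapped. Slc40a1 had 0.295 and 0.371 counts per Hmox1 count against 0.270 and 0.0768, so replicate 1 lay near the MycCaP libraries in this ratio.

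Per length, levels in CPM per 1000 bases of the main GENCODE transcript ran from Fth1 at 8114 ± 1768 and Ftl1 at 5073 ± 828 (SD, n = 2) in MycCaP macrophages, through Hmox1 at 533 ± 57.2, Slc11a1 at 118 ± 4.15, Slc40a1 at 81.8 ± 4.45, Slc48a1 at 36.0 ± 8.48, Trf at 26.9 ± 2.00, Tfrc at 16.7 ± 1.49 and Slc11a2 at 15.3 ± 1.10, to Ireb2 at 11.002 ± 1.01. Only Tfrc and Slc11a2 overlapped among neighbours in this order. In the MycCaP-BMP4 libraries Tfrc had 64.0 ± 26.5 CPM per 1000 bases and Slc40a1 15.4 ± 5.27. The order differed between these libraries, with Tfrc at rank 4 in replicate 1 and rank 5 in replicate 2 and Slc40a1 at ranks 8 and 9, and the libraries of Fth1 (1861 and 4685) and Ftl1 (1659 and 4013) overlapped. The exporter stood above the receptor in both MycCaP libraries and below it in both MycCaP-BMP4 libraries.

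Other genes of iron and heme metabolism were read from 6 further lists. None of their genes passed the edgeR test across all genes. The counts of genes higher or lower in both MycCaP-BMP4 replicates stand beside 28.9% and 29.7% of all genes tested. Of 15 tested genes for other iron uptake, storage and release, 8 were higher in both MycCaP-BMP4 replicates and 3 lower, or 53.3% and 20% (median log2 fold change 0.35, and 0.21 without MycCaP replicate 1). Steap1 and Steap2, of the STEAP metalloreductase family, had 2.49 and 2.79 CPM against 15.2 and 7.42 CPM, and 7.61 and 15.2 CPM against 60.7 and 18.6 CPM. Cp, which encodes ceruloplasmin, the ferroxidase that loads exported iron onto transferrin, had 119 and 119 CPM against 322 and 199 CPM. These 3 genes were highest in replicate 1, unlike Tfrc. Slc39a8, a zinc and iron importer gene, ran the other way, with 17.1 and 18.2 CPM against 2.32 and 7.29 CPM.

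Of 7 tested genes for iron sensing, 1 lay higher and 4 lower, or 14.3% and 57.1% (median log2 fold change -0.31, and -0.12 and -0.50 without MycCaP-BMP4 replicates 1 and 2). Hfe, which encodes a partner of the transferrin receptor, had 132 and 128 CPM in the MycCaP libraries and 26.1 and 83.3 CPM in the MycCaP-BMP4 libraries. Fbxl5, which encodes the ubiquitin ligase subunit that marks iron regulatory proteins for degradation, had 102 and 86.1 CPM against 62.5 and 85.0 CPM. Epas1 (HIF-2 alpha), whose message also carries an iron-responsive element, had 14.6 and 17.1 CPM against 21.8 and 25.04 CPM. Ciao1, an iron-sulphur assembly factor, had 53.1 and 47.4 CPM against 39.4 and 40.9 CPM.

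Of 10 tested genes of hepcidin and its BMP control, 6 lay higher and 2 lower, or 60% and 20% (median log2 fold change 0.87, and 0.54 without MycCaP-BMP4 replicate 1). Id1, a direct BMP target, had 9.97 and 8.40 CPM against 160.4 and 53.0 CPM. Neo1, which encodes neogenin, a coreceptor, had 9.80 and 14.3 CPM against 81.6 and 36.9 CPM, Bmpr1a, a BMP receptor, had 9.93 and 18.7 CPM against 76.4 and 29.6 CPM, and Smad7, an inhibitory SMAD, had 43.7 and 33.1 CPM against 116 and 55.2 CPM. All 4 were higher in replicate 1, the library with less macrophage RNA. Of the 2 that lay lower, Bmp6, which encodes a BMP ligand, had 2.89 and 4.73 CPM against 1.41 and 0.351 CPM. Hepcidin itself lay under the detection limit of 3 counts in every library. Its gene Hamp, named after its values were seen, had no count in MycCaP replicate 1. Hamp had 0.0844 CPM in MycCaP replicate 2, and 0.0362 and 0.0439 CPM in MycCaP-BMP4 replicates 1 and 2.

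Of 17 tested genes of mitochondrial iron and iron-sulphur assembly, 7 lay higher and 4 lower, or 41.2% and 23.5% (median log2 fold change 0.23, and 0.068 without MycCaP-BMP4 replicate 1, 0.43 without replicate 2, 0.080 without MycCaP replicate 2 and 0.39 without MycCaP replicate 1). Slc25a37, which encodes mitoferrin, the importer of iron into mitochondria, had 25.7 and 27.1 CPM in the MycCaP libraries and 41.0 and 57.2 CPM in the MycCaP-BMP4 libraries, and like Tfrc it was highest in replicate 2. The assembly genes Bola3, with 13.9 and 16.3 CPM against 27.8 and 20.6 CPM, and Isca2, with 15.6 and 20.4 CPM against 39.2 and 23.2 CPM, were highest in replicate 1. Nfu1, a carrier of iron-sulphur clusters, had 44.7 and 40.5 CPM against 24.9 and 32.3 CPM.

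Of 12 tested heme synthesis genes, 1 lay higher and 5 lower, or 8.33% and 41.7% (median log2 fold change 0.04, negative in 3 of the 4 fits that left out a library). Fech, which encodes ferrochelatase, the enzyme that inserts iron into heme, had 41.1 and 40.8 CPM against 24.1 and 31.2 CPM. Urod, an earlier enzyme of the pathway, had 44.5 and 36.8 CPM against 24.5 and 31.8 CPM. Of 16 tested genes for heme breakdown, carriage and export, 4 lay higher and 7 lower, or 25% and 43.8% (median log2 fold change -0.62, and -0.086 and -1.10 without MycCaP-BMP4 replicates 1 and 2). Hp, which encodes haptoglobin, the carrier of free haemoglobin, had 35.8 and 33.9 CPM against 14.7 and 11.1 CPM. Blvrb, a biliverdin reductase gene, had 131 and 99.9 CPM against 27.3 and 69.8 CPM. Flvcr2, which encodes a membrane transporter of the family of the heme exporter FLVCR1, had 0.700 and 0.676 CPM against 6.45 and 1.45 CPM, and Hpx, the heme carrier hemopexin, stayed under 1 CPM in each library.

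**Figure D4:**
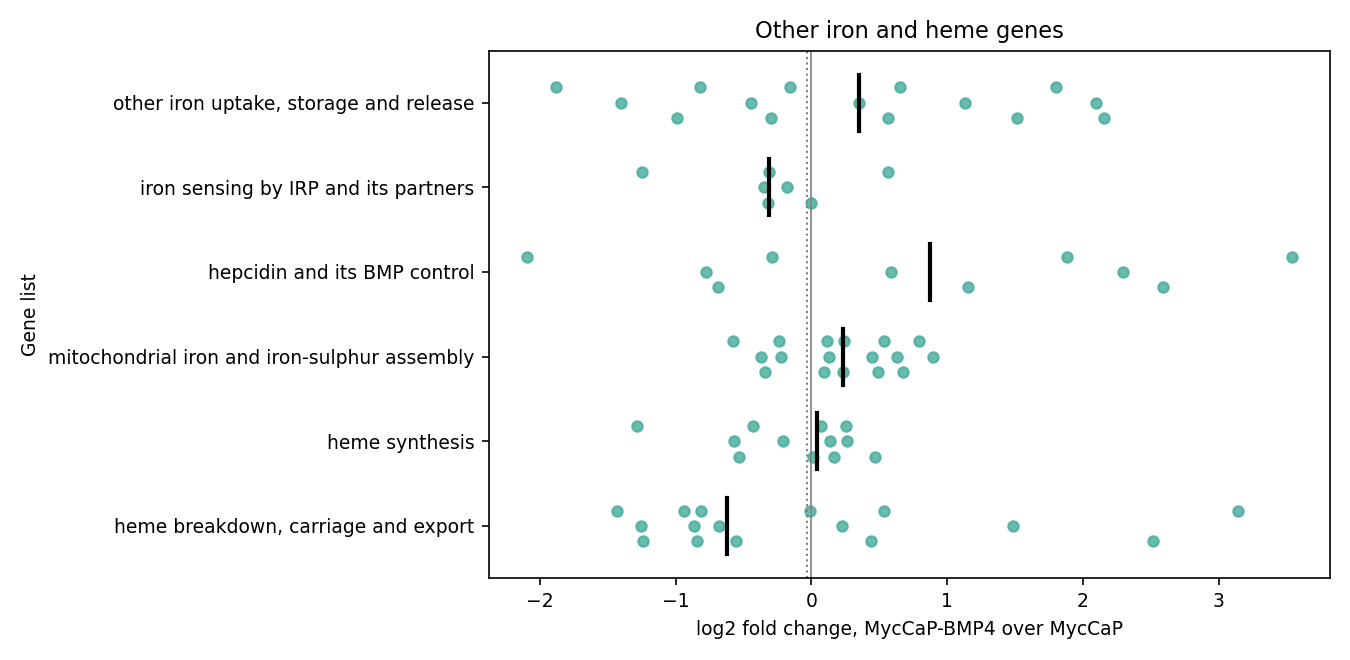
Log2 fold change, MycCaP-BMP4 over MycCaP, of each tested gene in the 6 other iron and heme lists, 1 point per gene, with the list median as a black bar and the median of all genes (-0.03) as a dotted line. The list medians run from -0.62 for heme breakdown, carriage and export to 0.87 for hepcidin and its BMP control, and each list has genes on both sides of 0.

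Markers of other cell types were read beside these values. The sort for CD45, CD11b and F4/80 should leave out tumour epithelium, red cells, fibroblasts, endothelium and most lymphocytes. The summed level of the 16 tumour epithelium genes was 115 and 148 CPM in the MycCaP libraries and 804 and 319.9 CPM in the MycCaP-BMP4 libraries, with Krt5 and Esrp1 at 0 in all 4. Cldn3, its gene with the largest level in MycCaP-BMP4 replicate 1, had 25.8 and 27.6 CPM against 359 and 126 CPM, and there were 2.96 and 3.15 Tfrc counts per Cldn3 count against 0.616 and 3.22. The tumour epithelium sum was highest in replicate 1 and Tfrc in replicate 2, and the part of tumour cell RNA in the level of Tfrc was not tested. The erythroid genes, whose cell type also uses Tfrc and the heme genes, summed to 25.6 and 24.5 CPM in the MycCaP libraries and 22.7 and 13.0 CPM in the MycCaP-BMP4 libraries. Of the 10 matched, Epb42 was at 0 in all 4 libraries, and Alas2 had 1.62 and 0.507 CPM against 0.471 and 0.395 CPM. The globin genes Hba-a1 and Hbb-bs had 11.6 and 8.61 CPM against 14.7 and 5.54 CPM, and 9.36 and 13.1 CPM against 6.37 and 5.71 CPM. The red cell sum was lowest in replicate 2, where Tfrc was highest, and its part in Tfrc was not tested. The summed levels of the other lists were 263 and 632 against 494 and 399 CPM for fibroblast and mural cells, 71.4 and 114 against 64.3 and 40.4 CPM for endothelium, 70.5 and 68.9 against 53.4 and 71.4 CPM for neutrophils, 94.1 and 88.5 against 17.96 and 49.9 CPM for T and NK cells, 127 and 162 against 42.5 and 83.3 CPM for B and plasma cells, and 65.4 and 70.0 against 16.9 and 41.7 CPM for dendritic cells. For T and NK cells, neutrophils, and B and plasma cells, much of the sum came from 1 gene each. Cd4 had 27.1 and 36.4 against 10.8 and 36.0 CPM in the T and NK cell list. Csf3r had 53.5 and 53.3 against 14.4 and 47.5 CPM in the neutrophil list. The part of these lists in the values of the members was not tested.

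The genes most like Slc40a1 and Hmox1 over the 4 libraries were sought among 9112 genes with a mean of at least 10 CPM, by the Euclidean distance of log2 CPM centred on each gene's mean. Those nearest to Slc40a1 were Ms4a4c (distance 0.082), a membrane gene of a family whose reads may be split between similar members, Tspan13 (0.140), which encodes a tetraspanin, and Galnt12 (0.231), which encodes a sugar transferase. Tspan13 had 81.3 and 80.2 CPM in the MycCaP libraries and 12.3 and 18.4 CPM in the MycCaP-BMP4 libraries. Those nearest to Hmox1 were Zdhhc14 (0.051), Kcnk13 (0.111) and Mfhas1 (0.121). Zdhhc14, which encodes a palmitoyltransferase, had 40.8 and 35.6 CPM against 6.37 and 37.4 CPM. With 4 libraries such a distance describes these values only.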

How the data were processed

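The authors deposited 1 file per library with the count of reads for each Ensembl gene and HTSeq-style summary lines. Tools named in the submitters' processing notes are HTSeq, STAR 2.6.0b, Bowtie2 2.2.3 and RSEM, with GRCm38 (mm10) as the build. The sources used here give no annotation release, strand setting or tool roles. Libraries were directional and poly(A)-selected from RNA with an integrity number above 7, per the labels' protocols.

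Summary lines were left out. They held 3.37% to 6.03% of reads outside genes, 8.01% to 10.6% with several alignments and 2.70% to 2.90% in overlapping genes. Of 39179 identifiers, 37607 had a symbol. Genes passing filterByExpr were scaled with TMM factors and tested with edgeR 4.0.16 (glmQLFit, two-sided, no covariate, Benjamini-Hochberg over all genes). CPM use TMM-scaled library sizes of the tested genes. SE is the absolute log2 fold change divided by the square root of F. Alternatives used DESeq2 1.42.0 and limma 3.58.1. The test was tried on simulated counts. Replicate numbers were not taken as pairs, since nothing in the labels says that they mark a shared animal or day. Members and lists were chosen with earlier results of these data known. Named genes are the members, up to 4 genes of each further list with the smallest p, marker genes and the 3 genes nearest to Slc40a1 and Hmox1. Cldn3, Hamp, Bmp6, Cd163, Steap4, Slc39a14, Krt5, Esrp1, Epb42, Aif1, Cd4, Csf3r and Ighm were named after their values were seen. A few marker genes are not reported here.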

Additional observations from a re-analysis of the deposited data

How the results depend on the processing

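With 2 libraries per group, few degrees of freedom limit every test, and fits without a MycCaP-BMP4 library take their spread from the MycCaP pair alone, assuming that the lone library varies alike. Slc40a1 kept its negative sign and Tfrc its positive sign in all 12 alternatives of each, with log2 fold changes from -2.79 to -0.96 and from 1.47 to 3.34 and edgeR, DESeq2 or limma adjusted p from 2.3e-07 to 0.837 and from 9.55e-05 to 0.890. The causes of the shifts below were not tested.

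Genes called numbered 0 with edgeR and became 65 (0.462% of those tested) with library size alone, 1118 (7.94%) scaled on the macrophage genes, 1109 of 21856 (5.07%) with no filter, 1385 (9.84%) with DESeq2's test, 2 with the replicate block and 0 to 5753 with a library left out (0 when either MycCaP library was left out, 1043 of 14657, 7.12%, without MycCaP-BMP4 replicate 1, and 5753 of 14855, 38.7%, without replicate 2). Members called numbered 0 and became 1 scaled on the macrophage genes, 2 with no filter, 2 with DESeq2's test and 0 to 8 with a library left out (3 without MycCaP-BMP4 replicate 1, 8 without replicate 2). The replicate block called 0 members, and DESeq2's size factors, a filter of 1 CPM in 2 libraries and limma-voom called 0 genes. The deviations of libraries with the same number correlated at r = -0.127 over 14075 genes, and a block with crossed numbers, added after the data were seen, called 689 genes and 1 member.

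Scaled on the macrophage genes, the member median turned to 0.43, those of iron sensing and of heme breakdown to 1.25 and 0.75, and log2 fold changes to 0.45 (Ftl1), 0.15 (Hmox1), 0.35 (Slc11a1), 1.04 (Slc48a1), 1.62 (Ireb2), 0.42 (Trf), 1.34 (Ciao1), 1.1998 (Fbxl5), 0.99 (Nfu1), 1.00 (Fech), 1.04 (Urod), 0.42 (Alas2), 1.11 (Tmem14c), 0.36 (Hp), 0.013 (Blvrb), 0.099 (Csf1r), 0.81 (Hbb-bs), 0.11 (Zdhhc14), 0.23 (Kcnk13) and 0.15 (Mfhas1). With libraries left out the member median ran from -1.82 to 0.0092 and that of heme synthesis from -0.16 to 0.12. Log2 fold changes between leaving out MycCaP-BMP4 replicate 2 and replicate 1 ran from -2.50 to 0.00083 (Hmox1), -2.05 to 0.015 (Slc11a1), -0.84 to 0.054 (Slc48a1), -2.22 to 0.25 (Trf), -0.36 to 0.78 (Slc11a2), -2.36 to 0.039 (Kcnk13) and -2.53 to 0.0090 (Mfhas1), and those of Hba-a1 from 0.57 to -0.87. Ireb2 ran from -0.13 without MycCaP replicate 1 to 0.059 without MycCaP replicate 2. Ireb2 was 0.13 with library size alone. Hba-a1, at 0.0016, was -0.0023 with no filter, -0.14 with the replicate block and -0.10 with limma-voom.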

Other observations

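Cd163, which encodes the macrophage receptor for haemoglobin bound to haptoglobin, had 61.4 and 53.6 CPM in the MycCaP libraries and 28.6 and 293.5 CPM in MycCaP-BMP4 replicates 1 and 2. The groups overlapped, and the edgeR adjusted p was 0.439. Hp, for haptoglobin, was at 14.7 and 11.1 CPM in the same MycCaP-BMP4 libraries and did not follow Cd163. Steap4, another metalloreductase gene, had 20.4 and 33.2 CPM against 116 and 36.6 CPM, and Slc39a14, which encodes an importer of iron not bound to transferrin, had 57.9 and 54.7 CPM against 90.8 and 86.4 CPM, close together in the MycCaP-BMP4 libraries. Cd163, Steap4 and Slc39a14 were picked after their values were seen, and none passed the edgeR test (adjusted p = 0.250 for Steap4 and 0.230 for Slc39a14).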
